A study of Mus musculus with 3530 samples.

Results

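Of the 23354 genes counted, the 5 that encode the peptides VIP and PACAP and the receptors binding them were followed: Vip (vasoactive intestinal peptide), Adcyap1 (PACAP), Vipr1 (the receptor VPAC1), Vipr2 (VPAC2) and Adcyap1r1 (PAC1). They were taken by name, with earlier results of these data known. Messenger RNA had been read by Smart-seq2, a plate method that amplifies whole transcripts of each sorted cell, in 3530 cells dissociated with papain from the mouse medial prefrontal cortex. All animals carried TRAP2, in which the Fos gene drives a tamoxifen-dependent Cre recombinase, and Ai14, a tdTomato reporter that Cre switches on, so that a cell that was active while tamoxifen was present stays marked. Contextual fear conditioning gave 4 conditions of 5 animals each, named Fear-Recall (1342 cells), Fear-Only (841 cells), Context-Only (912 cells) and Homecage (435 cells). The labels give no age, sex, tamoxifen dose or schedule for any of them.

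Sample titles mark 1806 cells as pos and 779 as neg, a sorting gate, and 68.3% ± 26.5 of pos cells against 9.63% ± 2.01 of neg cells held a read of the reporter (mean ± SD of 8 animals). A further 96 cells carry both marks and 849 carry none. Animals are named below by condition and number, and Context-Only 5b is a second animal that the labels also number 5, counted as a separate animal. Cells held a median of 813078 reads (range 100002 to 6840943). Clustering gave 2383 excitatory and 1147 inhibitory neurons, and Homecage 1, with 1 cell, entered no comparison.

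VIP and PACAP are related peptides of the secretin family that neurons release from dense-core vesicles. VPAC1 and VPAC2 bind both peptides, whereas PAC1 prefers PACAP, and all 3 receptors act mainly through the G protein Gs, adenylyl cyclase, cyclic AMP and protein kinase A, which phosphorylates CREB. In the mouse cortex, Vip marks a class of interneurons that mostly inhibit other interneurons, and Vipr2 has served to mark chandelier cells, interneurons that contact the axon initial segment of pyramidal cells.

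The Vip and Adcyap1 promoters are shown because each holds the letters TGACGTC, in capitals, which are part of the site that CREB binds, TGACGTCA. The windows are RefSeq's, on the plus strand of GRCm38.p6, and run from 250 bases before to 50 after an annotated start, at chr10:5638968-5639267 for Vip and chr17:93198767-93199066 for Adcyap1.
Vip: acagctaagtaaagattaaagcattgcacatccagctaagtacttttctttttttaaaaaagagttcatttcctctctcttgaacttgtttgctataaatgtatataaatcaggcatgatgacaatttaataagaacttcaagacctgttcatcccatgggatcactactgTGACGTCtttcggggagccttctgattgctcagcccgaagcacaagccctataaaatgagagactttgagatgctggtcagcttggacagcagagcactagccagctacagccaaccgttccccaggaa
Adcyap1: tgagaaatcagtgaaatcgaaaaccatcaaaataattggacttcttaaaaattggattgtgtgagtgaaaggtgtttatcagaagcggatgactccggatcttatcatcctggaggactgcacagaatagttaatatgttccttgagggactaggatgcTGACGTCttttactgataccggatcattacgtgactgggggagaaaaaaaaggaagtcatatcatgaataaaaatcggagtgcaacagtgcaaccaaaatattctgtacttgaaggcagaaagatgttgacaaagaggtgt
The run begins at position -79 from the start in Vip and at -91 in the Adcyap1 window shown, on the same strand as the gene in both. Adcyap1 has a second RefSeq window, at chr17:93198918-93199217, in which the same run lies at -242 from that window's start site. Among 32851 such windows of all genes, 1053 (3.21%) held TGACGTC or its reverse complement GACGTCA, and 588 (1.79%) held the longer TGACGTCA, which no member window held. The windows of Vipr1, Vipr2 and Adcyap1r1 did not hold TGACGTC. Their GC content was 73.7%, 65.3% and 67.3%, against 41.7% for Vip and 39% and 45.7% for the first and second Adcyap1 windows. The shorter site TGACG or CGTCA, which lies within the longer motifs, was in 20.8% of all windows and in those of Vip, Adcyap1 and Vipr1.

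The genes differed widely in how many cells held them. Vip, on chromosome 10 (5639218 to 5647617 of GRCm38, GENCODE vM21), had 18667126 reads in 898 cells (25.4%). Adcyap1r1, on chromosome 6 (55451978 to 55501451), had 152244 reads in 1671 cells (47.3%). Adcyap1, on chromosome 17 (93199017 to 93206537), had 63314 reads in 807 cells (22.9%), and Vipr1, on chromosome 9 (121642716 to 121672954), had 24482 reads in 672 cells (19%). Vipr2, on chromosome 12 (116077726 to 116146261), had 4717 reads in 48 cells (1.36%). Vipr2 was also the most uneven, with 1415 of its reads in 1 cell and 75.8% of them in 10 cells, while the highest cell of Vip held 0.56% of that gene's reads. Among cells with a read, the median level was 26376 CPM (reads scaled to the cell's total, as counts-per-million) for Vip, 58.6 CPM for Adcyap1 and 49.7 CPM for Adcyap1r1.

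Levels by neuron class are a description without a test, because cells were clustered on their genes, although these 5 were left out of the clustering. Classes are named for their markers, and levels are CPM of the summed reads of an animal's cells of a class (mean ± SD over animals with 5 or more such cells). Of the peptides, Vip was highest in Vip-type interneuron-like cells, at 29722 ± 4349 CPM in 17 animals, with 558 of 562 cells holding a read when each cell was thinned to 100000 reads. Sncg-type interneuron-like cells, whose markers include Sncg and Cnr1, followed with 18276 ± 8738 CPM in 14 animals and a read in 75.4% of 191 thinned cells. These levels overlapped within their SD, and both lay above the 359 ± 616 CPM of Neurogliaform-type cells in 13 animals. The Vip-type cells held 75.8% and the Sncg-type cells 16.8% of all Vip reads. An inhibitory cluster of few genes per cell, number 17, led by Tac2, was given no class name. In the pooled reads of its 66 cells Vip was at 13868 CPM, and 95.5% of these cells held a Vip read when thinned. The 51 Pvalb-type interneuron-like cells held no Vip read, so at most 5.88% of such cells would hold one at a floor of 3 counts. An excitatory cluster of few genes per cell (median 2955) had 4905 ± 5293 CPM of Vip in 5 animals together with 173.5 CPM of the inhibitory marker Gad1, so Vip is not given for excitatory neurons below.

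Adcyap1, the PACAP gene, was found almost wholly in excitatory neurons, which held 98.9% of its reads. It was highest in cluster 15, at 90.6 ± 54.1 CPM in 9 animals. Layer 5 markers scored highest in this excitatory cluster (0.281, where 0.25 was required), but its 10 leading genes held none of them and 2 of the Layer 6 lists, Crym and Nnat, so it goes by its number. The next level was that of Middle-layer excitatory-like cells, 54.9 ± 25.2 CPM in 17 animals, which overlapped with that of cluster 15 within their SD. Thinned cells held a read in 78 of 105 cells of cluster 15 and 410 of 676 Middle-layer cells, and the Middle-layer cells held 58.8% of all Adcyap1 reads. Upper-layer excitatory-like cells had 19.9 ± 25.4 CPM in 10 animals, while Layer 6 corticothalamic-like cells had 2.05 ± 2.03 CPM and Near-projecting excitatory-like cells 1.12 ± 2.09 CPM. Only 1 of 562 Vip-type cells held a read of it. Across 161 sums of an animal's cells of a class (19 animals, 14 classes, sharing libraries), Pearson's r between Vip and Adcyap1 on log2(CPM + 1) was -0.42.

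Of the receptors, Vipr1 was highest in Middle-layer excitatory-like cells, at 13.99 ± 10.8 CPM in 17 animals, where 25.3% of 676 thinned cells held a read. In pooled reads of this class it was at 7.57 CPM in cluster 2, 17.3 CPM in cluster 3 and 37.9 CPM in cluster 16. Upper-layer cells had 7.41 ± 5.61 CPM, Layer 6 intratelencephalic-like cells 7.35 ± 5.0 CPM and Vip-type cells 5.79 ± 7.34 CPM, all within 1 SD of each other. Excitatory neurons held 87.6% of Vipr1 reads. No Sst-type interneuron-like cell held a read of it in the thinned counts, which bounds the share at 1.91%.

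Nearly all Vipr2 reads lay in a few inhibitory cells. Pvalb-type interneuron-like cells had 46.5 ± 63.3 CPM in 5 animals and held 45.6% of all Vipr2 reads, with a read in 24 of the 51 cells. Vip-type cells held 48.7% of the reads, in 17 of 562 cells, with a mean of 3.25 ± 10.2 CPM and a median of 0.045 CPM over 17 animals. Context-Only 5b alone was at 42.1 CPM in Vip-type cells, against 0 to 7.57 CPM in the other animals. The 676 Middle-layer excitatory-like cells held no read, which bounds the share at 0.444%. The Pvalb-type cluster was led by Pthlh (the gene of parathyroid hormone-related peptide) and Crtac1, and its 24 cells with a Vipr2 read had 460 CPM of Pvalb and 1211 CPM of Pthlh, against 165.6 CPM of Pvalb and 1588 CPM of Pthlh in its 27 cells without one. Median depth was 759910 reads in cells with a Vipr2 read and 1016000 reads in those without. With 51 cells, no chandelier cell group could be told apart.

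Adcyap1r1 was the most widespread. It had 101 ± 47.7 CPM in Vip-type cells, 92.3 ± 73.0 CPM in Neurogliaform-type cells and 92.3 ± 30.4 CPM in Sncg-type cells. Upper-layer excitatory-like cells had 80.5 ± 70.8 CPM, Sst-type cells 73.9 ± 56.9 CPM, Pvalb-type cells 66.2 ± 27.3 CPM and Layer 6 intratelencephalic-like cells 55.3 ± 43.1 CPM, and each neighbour in this order lay within 1 SD of the next. At the low end were Middle-layer cells with 23.8 ± 15.4 CPM, Layer 6 corticothalamic-like cells with 7.43 ± 5.42 CPM and cluster 15 with 1.17 ± 1.96 CPM. In cluster 15, 4 of 105 thinned cells held a read. Neighbours in this order again overlapped within their SD. Cluster 15, of highest mean in Adcyap1, thus had the lowest mean of these in Adcyap1r1. Per kilobase of exon, the scale on which genes can be set side by side, Vip-type cells had 8737 CPM per kb of Vip and 15.4 CPM per kb of Adcyap1r1, and cluster 15 had 23.98 CPM per kb of Adcyap1 and 0.177 CPM per kb of Adcyap1r1.

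**Figure D1:**
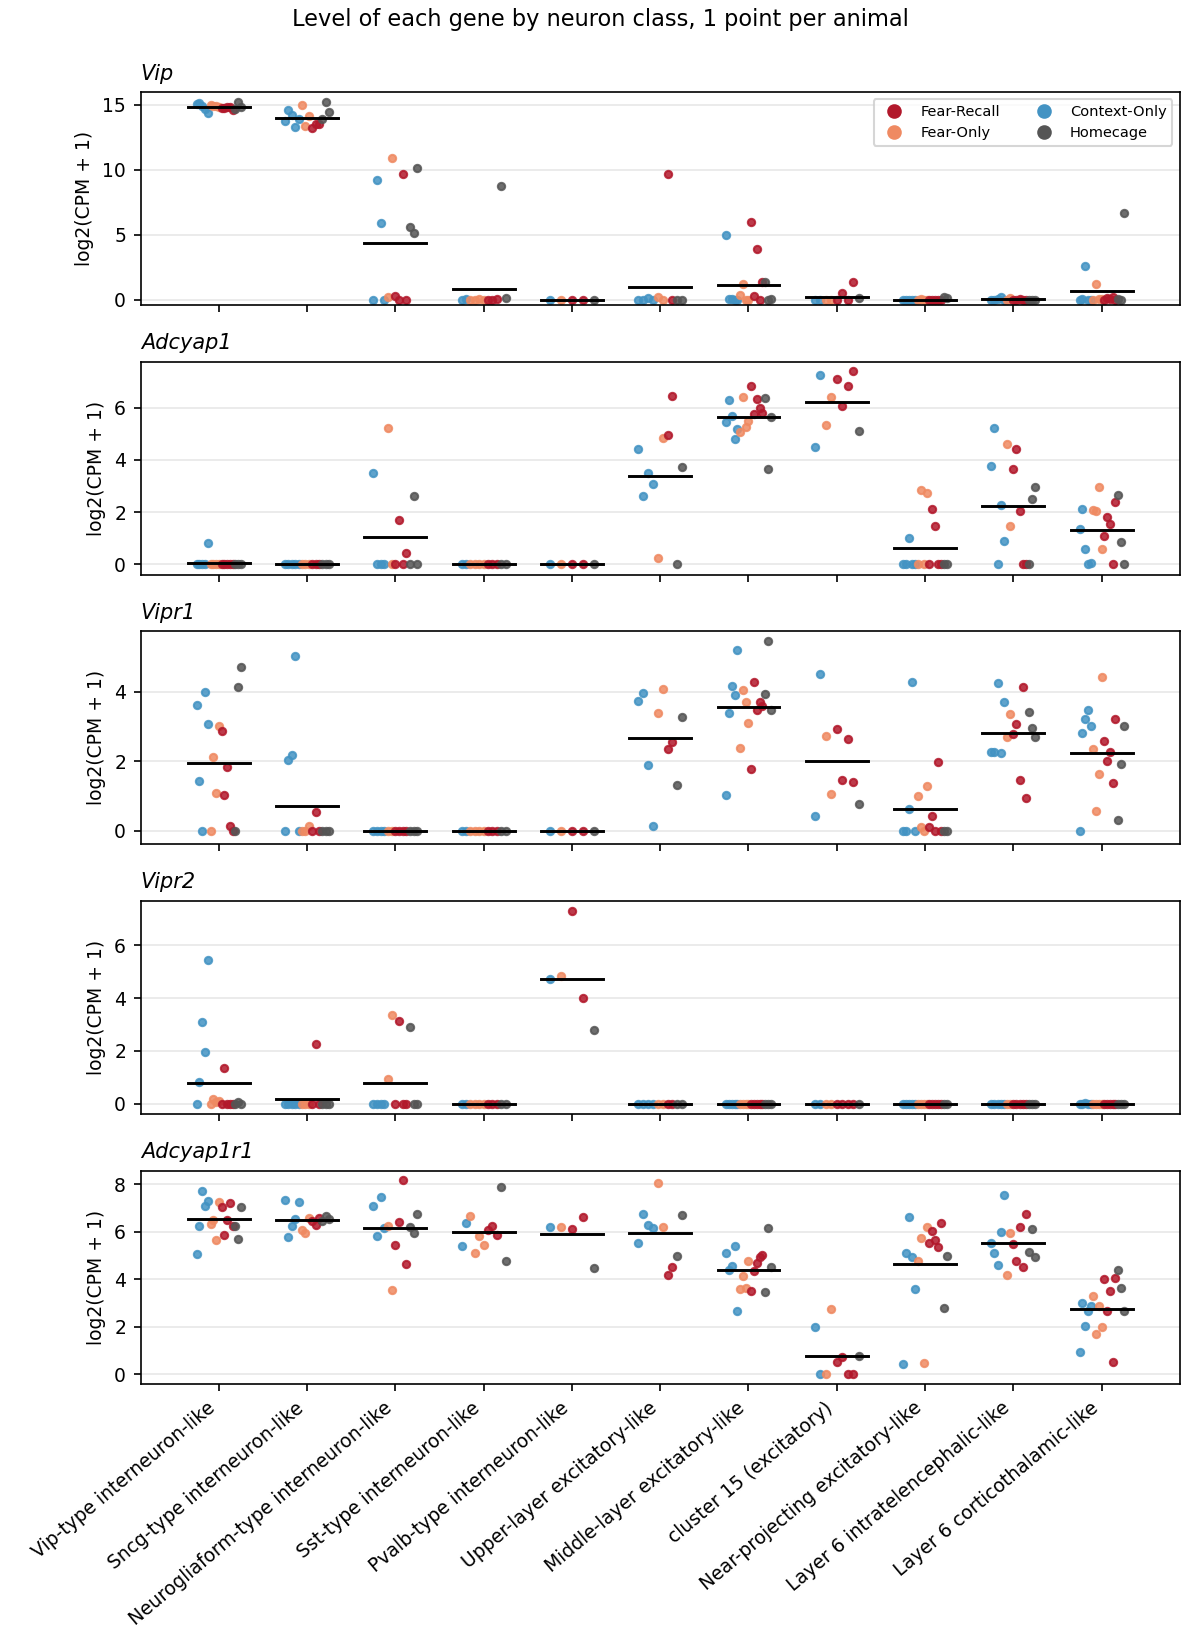
Level of each gene as log2(CPM + 1) (y axis) in 11 neuron classes or clusters (x axis), with 1 point per animal, coloured by condition, and the mean as a bar. Vip is high in Vip-type and Sncg-type cells, Adcyap1 in cluster 15 and Middle-layer cells, Vipr2 in Pvalb-type cells, and Adcyap1r1 in most classes other than cluster 15.

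Peptide and receptor transcripts were then counted in the same thinned cells. Of the 558 Vip-type cells with a Vip read, 290 (51.97%) held a read of Adcyap1r1, 26 (4.66%) of Vipr1 and 13 (2.33%) of Vipr2. Of the Sncg-type cells with a Vip read, 77.8% held one of Adcyap1r1, against 32 of 47 (68.1%) without a Vip read. Middle-layer cells with an Adcyap1 read held Adcyap1r1 in 151 of 410 (36.8%) and Vipr1 in 114 of 410 (27.8%), against 35.3% (Adcyap1r1) and 21.4% (Vipr1) of those without. In Upper-layer cells 18 of 45 cells with Adcyap1 held Adcyap1r1, against 51 of 79 (64.6%) without, and in cluster 15 it was 1 of 78 (1.28%) with Adcyap1, against 3 of 27 (11.1%) without. These shares pool the cells of all animals and are given without a test. In the 2 clusters of Vip-type cells Vip was at 31437 CPM in 316 cells led by Penk and Cbln2 and 26986 CPM in 246 cells led by Synpr and Igf1. Vipr1 was at 2.63 CPM in the Penk cluster and 7.05 CPM in the Igf1 cluster, and Vipr2 at 2.06 CPM in the Penk cluster and 8.44 CPM in the Igf1 cluster. These are pooled reads of few cells and were not tested. The Vipr1 reads came from 16 cells of each cluster, and the Vipr2 reads from 5 cells of the Penk cluster and 12 of the Igf1 cluster.

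For each gene the 3 others most like it over the 161 sums were taken, among 11933 genes, by Pearson's r of log2(CPM + 1). Vip was closest to Tac2 (r = 0.92), a tachykinin precursor that was also in the marker list of Vip-type cells, to the serotonin receptor subunit Htr3a (0.89) and to Prox1os (0.89), which overlaps Prox1, so that reads of the pair cannot be told apart without strand. Adcyap1 was closest to the transcription factor Neurod1 (0.81), to Chst8 (0.76), which was in the Layer 5 marker list, and to the transcription factor Lhx2 (0.75). The closest to Vipr1 were Zbtb18 (0.64), R3hdm1 (0.61) and Ak4 (0.60), and the closest to Vipr2 were Cox6a2 (0.52), Gfpt2 (0.51) and Pthlh (0.48). Adcyap1r1 was closest to Pam (0.64), the enzyme that amidates peptides such as VIP and PACAP, to Ubash3b (0.61) and to Cited2 (0.60). Among the members, the highest r was that of Adcyap1 with Vipr1 (0.45).

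Pos and neg cells of the same 8 animals were compared to see which transcripts went with the label. Vip rose in pos cells in every one of the 8 animals, and no other member passed the test over all neurons. In pos cells Vip was at 6567 CPM in Fear-Recall 2, 6270 in Fear-Recall 3, 10833 in Fear-Only 2, 9905 in Fear-Only 3, 5303 in Context-Only 2, 10433 in Context-Only 3, 6415 in Context-Only 4 and 7041 in Homecage 2. In neg cells of the same animals, in that order, it was at 1498, 1341, 2637, 1262, 3283, 5709, 2584 and 1563 CPM. The highest neg value, of Context-Only 3, lay above the lowest pos value, of Context-Only 2, but each pos value was above its own neg value. The means were 7846 ± 2176 CPM in pos and 2485 ± 1497 CPM in neg cells (SD, n = 8), and the log2 fold change was 1.80 (SE 0.25, adjusted p = 0.0173, edgeR's quasi-likelihood test with the animal as a block). The call was lost when Fear-Recall 2, Fear-Recall 3, Fear-Only 2 or Fear-Only 3 was left out (adjusted p 0.0505 to 0.0796), and without the 2 low-gene clusters (0.0576). This made 1 of 5 members called, where 0.287% of 17752 genes were called, 0.259% higher and 0.0282% lower. In such sums, more Vip cells and more Vip RNA per cell cannot be told apart.

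The makeup of the gates moved with Vip. Inhibitory neurons made up 37.7% ± 4.04 of pos and 19.1% ± 4.06 of neg cells, and Vip-type cells 17.7% ± 7.97 of pos and 7.74% ± 2.88 of neg cells, both higher in 8 of 8 animals. Among inhibitory neurons alone, the Vip-type share was 47.04% ± 19.97 in pos and 41.5% ± 14.6 in neg cells, higher in 4 of 8. The Vip-type class leaves out other cells with Vip, so its share does not measure all Vip cells. When thinned, 95.5% of the inhibitory cluster of few genes per cell and 75.4% of Sncg-type cells also held a Vip read. Thinned cells with a Vip read were 76.1% of pos and 46.7% of neg inhibitory neurons, higher in 6 of 6 animals. That difference did not pass after adjustment (exact sign-flip test, adjusted p = 0.104). Of 7 inhibitory marker genes 3 rose in pos cells (median log2 fold change 1.04), against a median of 0.02 over all genes. EdgeR called 0 of 7 excitatory markers (median -0.36, 4 at an unadjusted p under 0.05, 3 called by DESeq2) and 0 of 5 astrocyte markers (median 2.59, 1 at an unadjusted p under 0.05, 1 called by DESeq2). The part of the cell makeup in the Vip difference was not tested over all neurons, but the same comparison was made within classes.

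Within inhibitory neurons of 6 animals, Vip was at 19390 ± 4323 CPM in pos and 11365 ± 7322 CPM in neg cells, higher in 5 of 6 (log2 fold change 0.98, SE 0.31, edgeR adjusted p = 0.436). Within Vip-type cells of 7 animals, it was at 33000 ± 3840 CPM in pos and 23577 ± 6025 CPM in neg cells, higher in 7 of 7, with a log2 fold change of 0.51 (SE 0.11, edgeR adjusted p = 0.722, unadjusted p = 0.000932), where the median of all genes was 0.24. The neg sums of Vip-type cells held 5 to 12 cells each. Neither difference passed, and edgeR called 0% of genes in both comparisons, with 1411 and 600 genes at an unadjusted p under 0.05. DESeq2 called 399 and 806 genes, among them Vip within Vip-type cells (log2 fold change 0.46, adjusted p = 0.0395). In 7 of the 8 animals the gates were on different plates, so gate and plate cannot be told apart there. On the shared plate of Context-Only 4, Vip was at 6415 CPM in pos and 2584 CPM in neg cells over all neurons, and at 33963 CPM in pos and 20712 CPM in neg cells of the Vip type. In Sncg-type cells, with 2 animals, Vip was at 21960 ± 4205 CPM in pos and 5050 ± 1367 CPM in neg cells, a difference without a test.

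**Figure D2:**
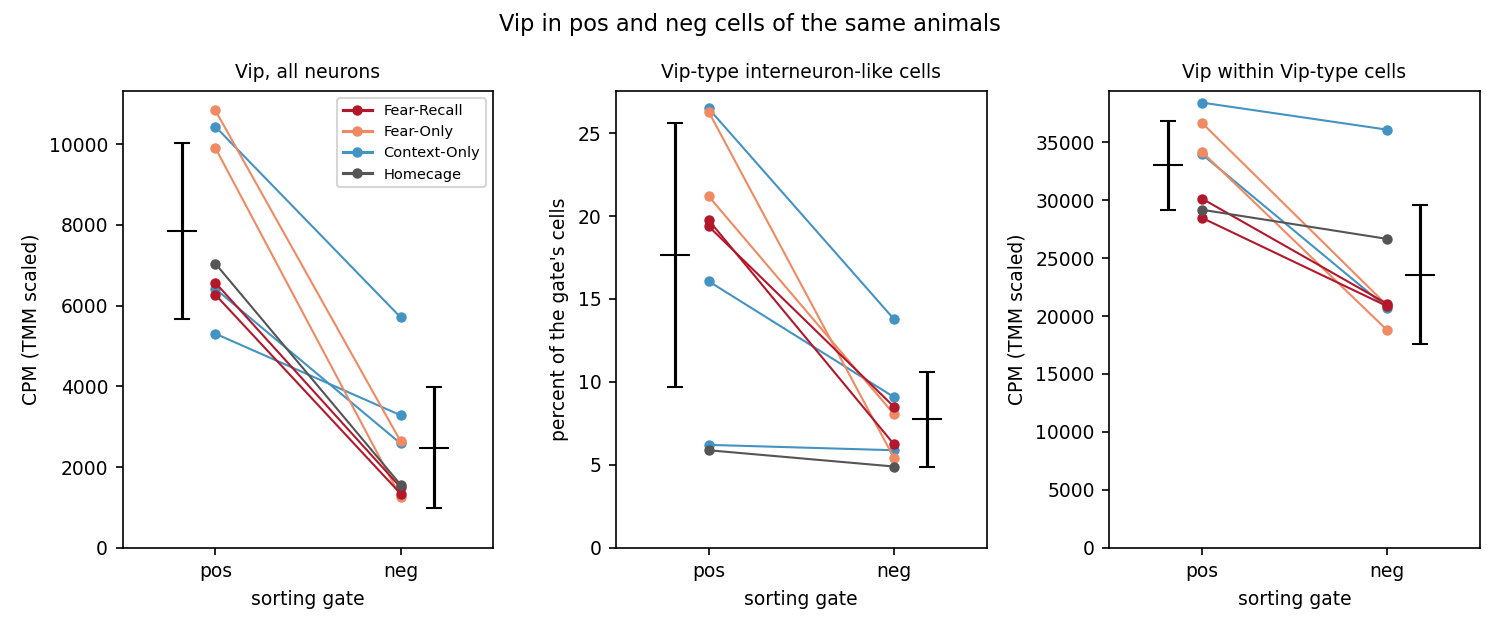
Vip in pos and neg cells of the same animals (lines join an animal, bars show mean ± SD): TMM-scaled CPM over all neurons, Vip-type cells as a percent of the gate's cells, and CPM within Vip-type cells. Every animal is higher in pos in all 3 plots, with means of 7846 CPM in pos and 2485 CPM in neg cells over all neurons.

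Adcyap1, the gene of the other peptide, was at 18.7 ± 6.25 CPM in pos and 18.6 ± 6.25 CPM in neg cells over all neurons (log2 fold change 0.01, SE 0.27, edgeR adjusted p = 0.988). Within excitatory neurons, pos cells had 35.7 CPM in Fear-Recall 2, 42.3 in Fear-Recall 3, 27.4 in Fear-Only 2, 36.9 in Fear-Only 3, 10.95 in Context-Only 2, 29.6 in Context-Only 3, 30.5 in Context-Only 4 and 25.6 in Homecage 2. Neg cells had 22.5, 21.3, 15.5, 17.9, 30.3, 38.8, 24.6 and 12.6 CPM in the same order, so pos was higher in 6 of 8 animals and lower in Context-Only 2 and Context-Only 3. The log2 fold change of 0.40 (SE 0.28, edgeR adjusted p = 0.770) did not pass. Middle-layer cells and cluster 15 together made up 30.9% ± 14.2 of pos and 21.9% ± 7.14 of neg excitatory neurons. By cluster, Adcyap1 was at 67.1 ± 39.8 CPM in pos and 89.03 ± 45.3 CPM in neg cells of cluster 2, the largest of the Middle-layer class, higher in 2 of 5 animals. In cluster 15 it was at 136.05 ± 62.1 CPM in pos and 53.1 ± 32.7 CPM in neg cells, and in the Upper-layer cluster 12 at 70.9 ± 51.2 CPM in pos and 32.5 ± 5.47 CPM in neg cells, both higher in 2 of 2 animals. Clusters are used here because Cck, of the Sncg-type list, was among the leading genes of a Middle-layer cluster, number 3, and no Middle-layer marker was.

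Among the receptors, Vipr1 in excitatory neurons was at 10.1 ± 5.12 CPM in pos and 6.12 ± 5.16 CPM in neg cells, higher in 7 of 8 animals, and did not pass (log2 fold change 0.95, SE 0.46, edgeR adjusted p = 0.708). The exception was Fear-Only 2, with 3.55 CPM in pos and 18.1 CPM in neg cells. In this comparison 0.0119% of 16838 genes were called and no member. In inhibitory neurons of 6 animals, Vipr1 had 932 reads in 18 of 529 pos cells and 1 read in 1 of 122 neg cells. The ratio, scaled to the depth of the sums, was 264.6, without an interval because reads of 1 cell are not independent. As a share of thinned cells, Vipr1 was in 2.69% of pos and 1.52% of neg inhibitory neurons (means of 6 animals). That difference had an exact sign-flip p of 0.5625 (adjusted 0.703). One pos cell of Homecage 2 held 418 of the 932 reads. EdgeR's adjusted p was 0.433 and that of DESeq2 0.000213. Vipr2 was at 0 in the neg sums of 4 of 8 animals over all neurons, and it averaged 0.92 ± 0.92 CPM in pos and 0.64 ± 0.86 CPM in neg cells (log2 fold change 2.19, SE 1.41, edgeR adjusted p = 0.598, and 0.53 without the animal block). Adcyap1r1 was at 45.6 ± 15.3 CPM in pos and 34.4 ± 10.2 CPM in neg cells over all neurons (log2 fold change 0.40, SE 0.20, edgeR adjusted p = 0.520), and at 21.2 ± 7.21 CPM in pos and 24.8 ± 7.10 CPM in neg excitatory neurons (-0.24, SE 0.26, adjusted p = 0.854). Within Vip-type cells it was at 91.7 ± 62.2 CPM in pos and 107 ± 45.5 CPM in neg cells (-0.32, SE 0.33, edgeR adjusted p = 0.996).

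**Figure D3:**
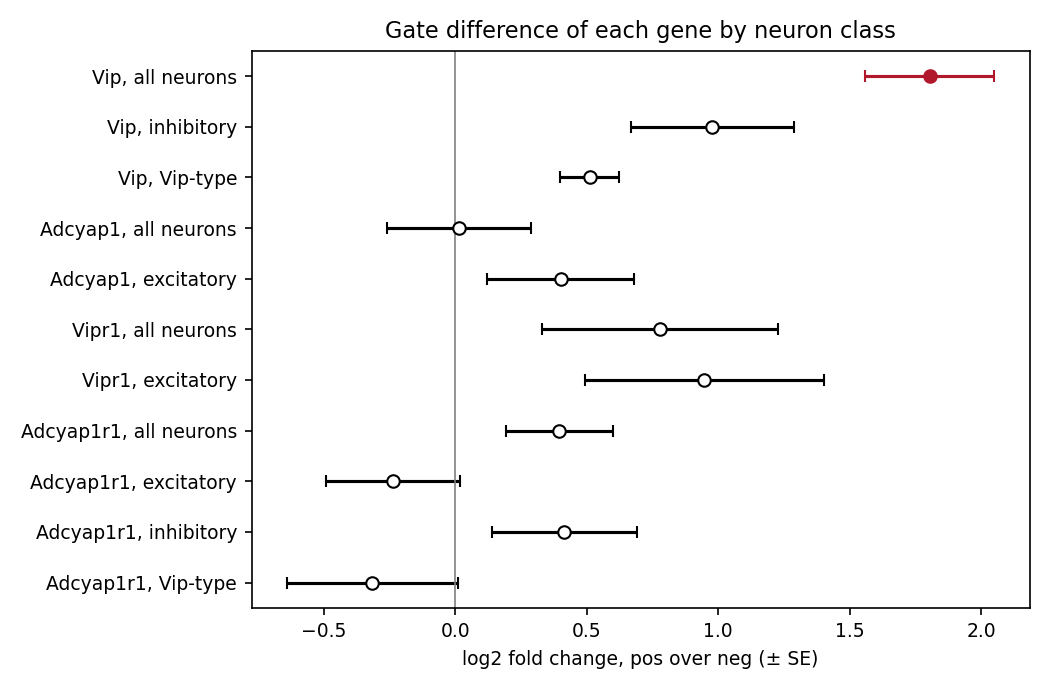
Log2 fold change of pos over neg cells (x axis, ± SE) for Vip, Adcyap1, Vipr1 and Adcyap1r1 in the neuron sets named on the y axis. The filled point, Vip over all neurons at 1.80, passed an adjusted p of 0.05 in edgeR, a call lost when any of 4 animals was left out (up to 0.0796), and open points did not.

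The share of cells with a read, at 100000 reads per cell, does not depend on the few cells with most reads. Of inhibitory neurons 76.1% ± 2.92 of pos and 46.7% ± 12.3 of neg cells held a Vip read, higher in 6 of 6 animals by 29.4 points (SE 5.07). The exact two-sided sign-flip p was 0.03125, the smallest that 6 animals allow, and 0.104 after adjustment over 10 such tests. In excitatory neurons 19.1% ± 6.36 of pos and 14.3% ± 4.21 of neg cells held Vipr1, higher in 7 of 8 animals (exact p = 0.0234, adjusted 0.104). Adcyap1r1 lay the other way, in 26.4% ± 8.60 of pos and 33.8% ± 7.33 of neg excitatory neurons, higher in 1 of 8 animals (exact p = 0.0234, adjusted 0.104). Homecage 2 had 11.8% in pos and 32.5% in neg cells, and without it the difference was -5.56 points. Thinning does not equalize genes per cell. Over all neurons their median was 3902 in pos and 7352 in neg cells of Homecage 2, but 6582.5 and 6035.5 in Fear-Only 2. The part of this in the shares was not tested. Adcyap1 was in 32.1% ± 9.73 of pos and 25.1% ± 7.58 of neg excitatory neurons, higher in 7 of 8 (exact p = 0.0938, adjusted 0.188). None of the 10 passed after adjustment. With 6 animals, an inhibitory share at its smallest p could pass only if most of the 10 tests were as small. Not passing therefore decides nothing for the Vip share. Vipr2 in excitatory neurons had no thinned read in either gate, so its test could not pass.

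**Figure D4:**
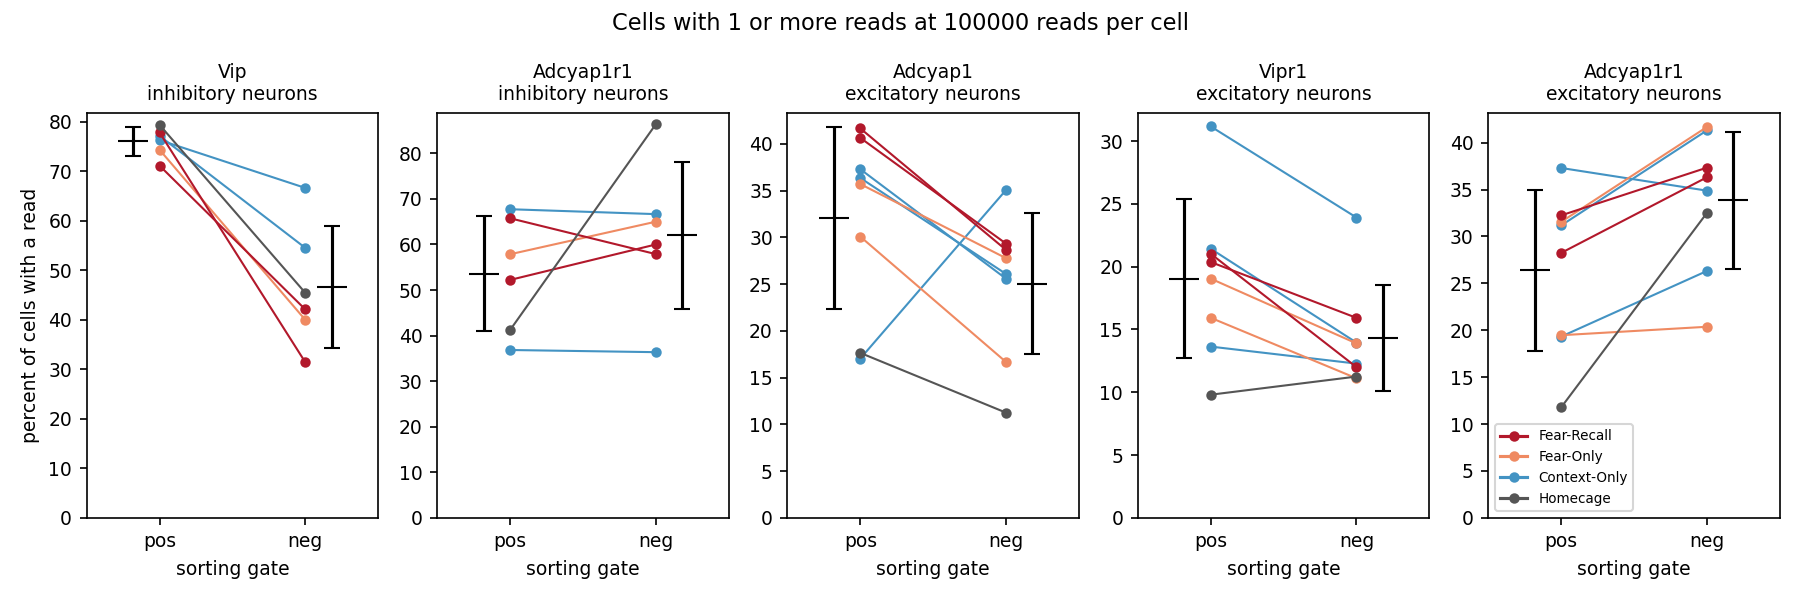
Percent of cells with 1 or more reads (y axis) in pos and neg cells of the same animals, thinned to 100000 reads per cell, for 5 pairs of gene and neuron class. Lines join an animal and bars show mean ± SD. The Vip share is higher in pos in all 6 animals, and that of Adcyap1r1 in excitatory neurons is higher in neg in 7 of 8.

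Conditions were compared over animals, first in pos cells and then in cells of any gate, the only comparison that has more than 1 Homecage animal. Of 59 member tests in 13 comparisons, 0 passed with edgeR, 3 had an unadjusted p under 0.05, and DESeq2 called 0, and edgeR called 0% of all genes in each. Among all genes, an unadjusted p under 0.05 was found for 381 of 17527 (Fear-Recall against Fear-Only, pos inhibitory neurons) up to 1626 of 18978 (Fear-Recall against Homecage, excitatory neurons). DESeq2's calls over the 13 comparisons summed to 1109. In pos excitatory neurons, Adcyap1 was at 35.8, 42.4 and 38.9 CPM in Fear-Recall 2, 3 and 4, at 27.3 and 36.9 CPM in Fear-Only 2 and 3, and at 10.97, 29.7 and 30.7 CPM in Context-Only 2, 3 and 4. The Fear-Recall and Context-Only values did not overlap, and the log2 fold change was 0.71 (SE 0.38, edgeR adjusted p = 0.949), or 0.37 without Context-Only 2. How many of all genes separate in this way was not counted, here or in the comparisons of conditions below. Lack of overlap between so few animals is therefore given as description only. Vipr1 in these cells was at 8.25 ± 1.87 CPM in Fear-Recall (n = 3), at 3.54 and 6.76 CPM in Fear-Only and at 11.9 ± 4.05 CPM in Context-Only (n = 3). The Fear-Only values lay below all of Context-Only (log2 fold change -1.20, SE 0.49, edgeR adjusted p = 1). Adcyap1r1 was at 20.01 ± 2.73 CPM in Fear-Recall, at 9.41 and 20.8 CPM in Fear-Only and at 27.3 ± 6.99 CPM in Context-Only, again without overlap between Context-Only and either other condition. Vip in pos inhibitory neurons was at 17540 ± 1159 CPM in Fear-Recall, 24760 and 22856 CPM in Fear-Only and 20235 ± 5788 CPM in Context-Only, and Fear-Recall differed from Context-Only by -0.21 (SE 0.29, edgeR adjusted p = 0.991). Fear-Recall, at most 18446 CPM, lay below both Fear-Only values, with a log2 fold change of -0.44 (SE 0.32) that did not pass. The gate difference of Vip was larger in Fear-Recall than in the other conditions by 0.51 (SE 0.54, edgeR adjusted p = 1), which did not pass.

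In excitatory neurons of any gate, Adcyap1 was at 45.7, 31.4, 36.1, 39.4 and 32.8 CPM in Fear-Recall 1 to 5. It was at 2.33, 20.9, 25.1, 27.2 and 17.5 CPM in Fear-Only 1 to 5, where animal 1 had 18 such cells. Context-Only 2, 3, 4, 5 and 5b had 17.7, 32.3, 29.1, 16.3 and 19.7 CPM, and Homecage 2, 3, 4 and 5 had 18.3, 2.88, 7.54 and 16.3 CPM, with 12 cells in Homecage 4. All Fear-Recall values lay above all Homecage values, and how many of all genes do so was not counted. Fear-Recall averaged 37.1 ± 5.71 CPM (n = 5) and Homecage 11.3 ± 7.29 CPM (n = 4), a log2 fold change of 1.71 (SE 0.53, unadjusted p = 0.00393, edgeR adjusted p = 0.578) that did not pass. In that comparison 1626 of 18978 genes had an unadjusted p under 0.05. Fear-Only against Homecage gave 0.73 (SE 0.51, adjusted p = 0.774) and Context-Only against Homecage 1.03 (SE 0.51, adjusted p = 0.894). The 3 comparisons share the Homecage animals. Gates were mixed in different parts: Fear-Recall 4 had pos cells only and Homecage 4 neg cells only. Middle-layer cells and cluster 15 together were 35.3% to 58.8% of excitatory neurons in Fear-Recall and 13.04% to 29.7% in Homecage animals. Within clusters few Homecage animals had 5 or more cells. In the Middle-layer cluster 2 Adcyap1 was at 58.7 to 82.4 CPM in 2 Fear-Recall animals and 91.1 CPM in 1 Homecage animal, and in the Middle-layer cluster 3 at 56.04 to 115.4 CPM in 3 Fear-Recall animals and 49.3 CPM in 1 Homecage animal. In cluster 15 it was at 66.7 to 167.4 CPM in 4 Fear-Recall animals and 33.5 CPM in 1 Homecage animal. In the Upper-layer cluster 12 it was at 30.3 to 85.7 CPM in 2 Fear-Recall animals and 0 to 12.2 CPM in 2 Homecage animals, without overlap. The part of gate and class in the difference was not tested further.

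**Figure D5:**
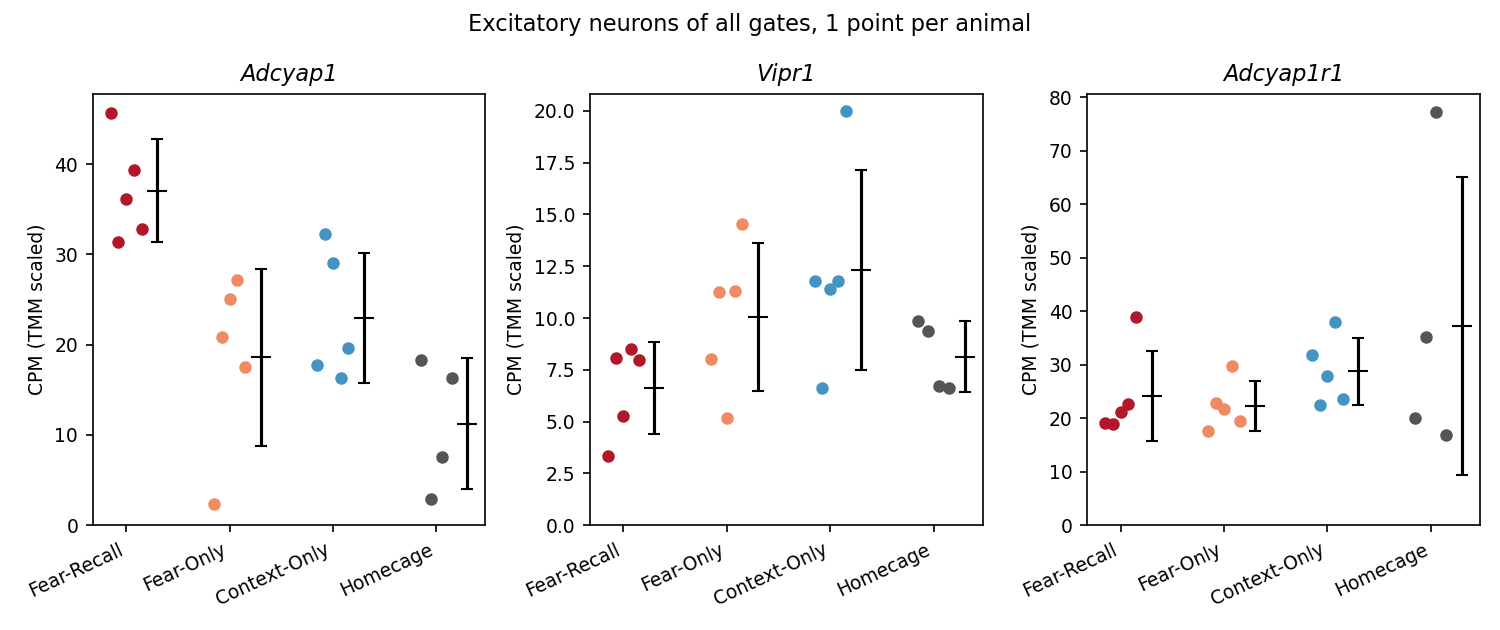
TMM-scaled CPM (y axis) of Adcyap1, Vipr1 and Adcyap1r1 in excitatory neurons of any gate by condition (x axis), 1 point per animal with mean ± SD. Adcyap1 was 31.4 to 45.7 CPM in Fear-Recall and 2.88 to 18.3 CPM in Homecage, while the other genes overlap between conditions.

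In cells of any gate the values of the other genes overlapped between Fear-Recall and Homecage, except those of Vipr1 in inhibitory neurons. Vipr1 in excitatory neurons of any gate was at 6.62 ± 2.24 CPM in Fear-Recall, 10.1 ± 3.57 in Fear-Only, 12.3 ± 4.81 in Context-Only and 8.14 ± 1.72 in Homecage. Adcyap1r1 was at 24.2 ± 8.41 CPM in Fear-Recall, 22.3 ± 4.64 in Fear-Only, 28.8 ± 6.31 in Context-Only and 37.3 ± 27.9 in Homecage, where the 12 cells of Homecage 4 had 77.4 CPM. Vip in inhibitory neurons was at 13800 ± 2787 CPM in Fear-Recall, 17888 ± 4144 in Fear-Only, 18067 ± 4565 in Context-Only and 19405 ± 5697 in Homecage (Fear-Recall against Homecage -0.49, SE 0.26, edgeR adjusted p = 0.611). Within Vip-type cells it was at 27516 ± 1780 CPM in 5 Fear-Recall, 31295 ± 1642 in 4 Fear-Only, 29705 ± 6437 in 5 Context-Only and 31329 ± 6090 CPM in 3 Homecage animals. Vipr1 in inhibitory neurons was at 2.17, 0.46, 1.26, 0.05 and 0 CPM in Fear-Recall 1 to 5, below the 7.0, 8.55 and 12.9 CPM of Homecage 2, 3 and 5 (log2 fold change -3.59, SE 1.41, edgeR adjusted p = 0.609). The gap was not particular to Fear-Recall. Fear-Only, at 0 to 2.48 CPM in 4 animals, also lay below Homecage (-2.82, SE 1.49, edgeR adjusted p = 0.885). Context-Only, at 0.64 to 12.9 CPM in 5 animals, overlapped with Homecage (-1.16, SE 1.36). The Fear-Recall reads came from 14 of 383 cells and the Homecage reads from 5 cells, 1 of which held 418 reads, so the share of cells was 3.66% in Fear-Recall and 3.25% in Homecage. Vipr2 in inhibitory neurons ranged from 0 to 9.52 CPM, but for 31.7 CPM in Context-Only 5b.

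Other genes of the pathway were followed as lists. Of 32 genes from Gs to CREB, edgeR called 0 in the gate comparison over all neurons, 5 had an unadjusted p under 0.05 (1880 of 17752 genes did) and DESeq2 called 3 (777 of 17860 genes). The list's median log2 fold change was -0.06, against 0.02 over all genes. The nearest was Crem, a CREB relative that cyclic AMP induces, at 75.4 CPM in pos and 50.3 CPM in neg cells (0.63, SE 0.12, edgeR adjusted p = 0.0631), followed by the phosphodiesterase Pde7b (0.92, adjusted p = 0.309), the adenylyl cyclase Adcy7 (1.39, adjusted p = 0.349) and Creb1 (-0.45, adjusted p = 0.376). Of 15 genes of peptide processing and dense-core vesicles 1 rose, where 0.259% of all genes did. It was Scg2, a granin stored in these vesicles, at 835 CPM in pos and 416 CPM in neg cells (0.995, SE 0.14, edgeR adjusted p = 0.0173), and the list's median was 0.07. Pam (0.61, adjusted p = 0.206), the prohormone convertase Pcsk1 (1.003, adjusted p = 0.244) and Vgf (0.72, adjusted p = 0.292) did not pass. Of 12 further secretin-family peptides, receptors and receptor partners, 6 were tested and edgeR called 0, with 2 at an unadjusted p under 0.05 and 1 called by DESeq2 (median 0.43). Within excitatory neurons edgeR called 0 genes of these lists, with Crem at 0.77 (adjusted p = 0.172). At an unadjusted p under 0.05 there were 3 genes of the cyclic AMP list, 2 of the peptide list and 2 of the secretin-family list, against 1183 of 16838 genes in all. DESeq2 called 2 of the cyclic AMP list, 2 of the peptide list and 0 of the secretin-family list, against 313 of 18686 genes in all. Between Fear-Recall and Homecage excitatory neurons edgeR and DESeq2 called 0 in each list, 2 genes of the cyclic AMP list and 0 of the others had an unadjusted p under 0.05, and the medians were 0.11 for the cyclic AMP list and 0.14 for the peptide list, against 0.00 over all genes.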

How the data were processed

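The deposited table holds read counts per gene and cell, raw by their whole-number values. Bowtie 0.12.2 and the builds mm8 and mm10 appear in the submitters' processing notes. How reads were counted per gene was not given in the sources used here, so strand-specific counting cannot be assumed. The members and lists were chosen with earlier results of these data known. The reporter was left out. Cells were clustered without the 5 members (scanpy 1.11.5, Leiden resolution 1.0 on 15 neighbours in 30 principal components of 2000 variable genes), and named by marker lists, with a minimum score of 0.25 set after seeing the data. No doublet caller was run, since cells were sorted singly.

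Counts were summed per animal, class and gate (10 or more cells, 5 or more for Vip-type cells) and tested with edgeR 4.0.16 (TMM, filterByExpr, quasi-likelihood, Benjamini-Hochberg at 0.05 over all genes tested) under R 4.3.3, with DESeq2 1.42.0 as an alternative. Scripts were tested on simulated data. Sums in the gate comparison held 34330142 to 277685602 reads. Limits at 3 counts cover counting error only. Members are reported only in classes that hold them, a choice made after their levels were seen. From each list up to 4 genes of smallest p are named, and the Gad1, Pvalb, Pthlh and cluster-leading values were added after their values were seen.

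The labels do not say what a shared animal number marks, and the main fits of conditions used no block for it. In any-gate excitatory sums the median r of such deviations, described next, was 0.50 for same-numbered pairs and -0.15 for other pairs. Deviations of same-numbered animals from their condition means correlated above 0.1 in every pair of any-gate excitatory (r 0.19 to 0.73) and inhibitory sums (0.14 to 0.63) and of pos sums over all neurons (0.13 to 0.79) and inhibitory neurons (0.17 to 0.60), but in 6 of 7 pairs of pos excitatory sums (0.07 to 0.77).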

Additional observations from a re-analysis of the deposited data

Results flagged for a closer look

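In 52 groups of 4 to 10 values, 9 had a highest or lowest value set apart from the rest by Dixon's 95% criterion, and chance flags about 1 in 20 groups. In neg cells over all neurons, Vip was at 5709 CPM in Context-Only 3, against 1262 to 3283 CPM in the other 7 animals. Vipr1 was at 15.5 CPM in the neg cells of Fear-Only 2, against 2.19 to 6.55 CPM, and within excitatory neg cells of the same animal at 18.1 CPM, against 2.82 to 8.14 CPM. Vipr2 was at 2.44 CPM in the neg cells of Context-Only 4, against 0 to 1.10 CPM. In inhibitory pos cells Vipr1 was at 10.9 CPM in Homecage 2, where 1 cell held 418 reads, against 0.57 to 2.51 CPM, and in inhibitory neg cells it was at 0.0987 CPM in Context-Only 2, which is 1 read, against 0 in the others.

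Within Vip-type pos cells Adcyap1r1 was at 228 CPM in Context-Only 4, against 42.3 to 88.4 CPM in the other animals. In excitatory neurons of any gate it was at 38.9 CPM in Fear-Recall 5, against 18.9 to 22.7 CPM in the other Fear-Recall animals. Vip in inhibitory neurons of any gate was at 24097 CPM in Fear-Only 2, against 15561 to 16011 CPM in the other Fear-Only animals.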

How the results depend on the processing

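The call of Vip over all neurons kept its direction in all 13 alternatives (log2 fold change 1.64 to 1.96, adjusted p 2.71e-11 to 0.0796) but not always its side of 0.05. It was lost, leaving 0 members called, without the 2 low-gene clusters, those of fewest genes in a cell (1.64, adjusted p 0.0576) and, in an alternative chosen after seeing the data, without Context-Only 2 and Homecage 2, the animals of lowest reporter share (1.92, adjusted p 0.0567). Leaving out 1 animal gave 0 to 1 members called: Vip was lost without Fear-Only 2 (adjusted p 0.0505), Fear-Only 3 (0.0706), Fear-Recall 2 (0.0796) or Fear-Recall 3 (0.0663). DESeq2 called 1 member within inhibitory neurons (Vipr1) and 1 within Vip-type cells (Vip), where edgeR called 0, and called 777 genes over all neurons and 313 within excitatory neurons, where edgeR called 51 and 2. The cause was not tested. With all reads, 38% of Middle-layer cells held Vipr1, against 25.5% thinned, since more reads count. In the animals numbered 2 to 4 alone Adcyap1r1 was at 86.9 CPM in Vip-type cells, and Neurogliaform-type cells were then highest.

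The replicate block of animal numbers changed no member's call: Adcyap1 in Fear-Recall against Homecage excitatory neurons was at 1.93 (adjusted p 0.262). With it Fear-Only against Homecage inhibitory neurons turned to 0.0012 for Vip and 0.53 for Vipr2, and Fear-Only against Context-Only pos inhibitory neurons to -0.73 for Vipr1. Without the animal block Vip over all neurons was at 1.66 (adjusted p 0.0403), and Vipr2 between gates of inhibitory neurons turned to -0.093. Without the low-gene clusters, Vip in Context-Only against Homecage turned to 0.014 and Vipr1 in Fear-Only against Context-Only pos inhibitory neurons to -0.54.

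Leaving out 1 animal also turned the sign of results that had not passed, with these ranges: Adcyap1 between gates -0.091 to 0.26; Fear-Recall against Context-Only pos cells, Vipr2 -1.29 to 0.89 over all neurons and -1.38 to 0.96 in inhibitory neurons, and Adcyap1r1 -0.65 to 0.10; Fear-Recall against Fear-Only, Adcyap1r1 -0.064 to 1.10; Fear-Only against Context-Only, Vipr1 in inhibitory neurons -1.08 to 0.83. Against Homecage, Adcyap1r1 in excitatory neurons ranged from -0.88 to 0.024 (Fear-Recall) and -0.61 to 0.27 (Context-Only), and in inhibitory neurons from -0.43 to 0.07 (Fear-Recall) and -0.0037 to 0.50 (Context-Only). Vip ranged from -0.34 to 0.028 (Fear-Only) and -0.33 to 0.044 (Context-Only), and Vipr2 from -1.004 to 1.21 (Fear-Only). The interaction ranged from -0.17 to 0.71 for Vipr1, -1.40 to 8.24 for Vipr2 and -0.58 to 0.13 for Adcyap1r1. Other printed fold changes moved by over 1.5 times without 1 animal: between gates, Adcyap1 in excitatory neurons to 0.64 (without Context-Only 2), and Adcyap1r1 to 0.26 over all neurons (without Homecage 2), to -0.014 (without Fear-Only 2) and -0.152 (without Fear-Recall 3) in excitatory neurons and to -0.49 to -0.158 in Vip-type cells (without Context-Only 4, Fear-Only 3 or Fear-Recall 3); in Fear-Recall against Context-Only pos inhibitory neurons, Vip to -0.39 (without Context-Only 2) and -0.0037 (without Context-Only 3); Adcyap1 in Fear-Only against Homecage to 0.41 (without Homecage 3); and the interaction of Vip to 0.33 (without Context-Only 2). Thinned to an equal depth, 37 of the 48 cells with a Vipr2 read still held one.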
